A study of Mus musculus with 12 samples.

Results

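The genotype difference under agonist was measured in B lymphocytes: cells of Tmem173-/- mice, as labelled, were compared with wild type cells after both had received 3'3'-cGAMP for 12 hours. The comparison used the 3 Tmem173-/- cGAMP and the 3 wild type cGAMP libraries of poly-A RNA, 6 of the 12 libraries in the series. It covered the 14473 genes that passed a filter on low counts by group, of 26792 genes with at least 1 count in some library. The other 6 libraries were controls without cGAMP, 3 of each genotype. They shared the estimate of spread and gave the genotype difference without agonist as a background. B cells had been sorted from 3 wild type and 3 Tmem173-/- mice and seeded in 96-well flat-bottom plates. The labels do not give the Tmem173 allele, the cGAMP dose, the animals' age or sex, or what the control wells received. They do not say whether a control and a cGAMP library with the same number came from the same mouse, so p-values measure the spread between these libraries.

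Tmem173 encodes STING, a membrane protein of the endoplasmic reticulum that binds cyclic dinucleotides. These are made in mammalian cells by the DNA sensor cGAS, as 2'3'-cGAMP, and by bacteria, as 3'3'-cGAMP. Bound STING recruits the kinase TBK1, which phosphorylates the transcription factor IRF3 and leads to type I interferon, and it also engages NF-kB. Secreted interferon acts on its receptor on the same and on neighbouring cells and, through a complex that includes STAT2 and IRF9, switches on interferon-stimulated genes at a DNA element called ISRE. In B cells, STING ligands are known to induce interferon-stimulated and activation genes, and sustained STING signalling can lead to death of lymphocytes.

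Total counts were 26490593 to 31417833 per library, with 18556 to 19727 genes detected. The B cell marker genes, among them Ms4a1, Cd79a, Cd79b, Pax5, Ebf1, Cd22 and Blk, had counts in all 12 libraries and summed to 3514 to 4282 CPM (counts scaled to a fixed library total after TMM scaling) in wild type cGAMP and to 5236 to 6320 CPM in Tmem173-/- cGAMP. Markers of other cells were unevenly spread. Wild type cGAMP replicate 1 held 46.2 CPM of 14 T cell genes and 27.2 CPM of 10 neutrophil genes, against 4.91 to 10.8 CPM and 0 to 1.80 CPM in the other 5 cGAMP libraries, and wild type control replicate 1 also held more of both than the other controls. The 10 NK cell genes summed to 6.59 CPM in wild type cGAMP replicate 1 and to 0.999 to 2.68 CPM in the other 5. The part of these markers' cells in the results was not tested. Counts of called genes, in all and by list, were also obtained without wild type replicate 1, and the main ones are given at the end. In bulk RNA, fewer cells of a type and less RNA per cell cannot be told apart.

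Tmem173 itself (ENSMUSG00000024349, GRCm38 chromosome 18, 35733678 to 35740554) was not lower in the libraries labelled Tmem173-/-. The 3 wild type cGAMP libraries had 44.7, 49.2 and 48.0 CPM and the 3 Tmem173-/- cGAMP libraries 82.9, 101 and 95.9 CPM. The groups did not overlap and the labelled knockout was the higher one, with a log2 fold change of 0.98 ± 0.10 (Tmem173-/- minus wild type, ± standard error, SE; adjusted p = 9.88e-07, edgeR quasi-likelihood test, n = 3 libraries per group here and below). Differences given for other genes are on this log2 scale too, negative where Tmem173-/- was lower. Without agonist, wild type had 91.2, 102 and 92.7 CPM and Tmem173-/- 80.2, 94.7 and 103 CPM, and these values overlapped. The labels also carry the short code GT for these samples, without saying what it stands for. A count over the whole gene cannot show a deletion of part of it or a changed protein. The genotype of each group, and every direction that follows, therefore rests on the labels.

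Under cGAMP a large share of genes differed between the genotypes. Of 14473 genes, 6994 (48.3%) had an adjusted p under 0.05 and are described as called. Of these, 3598 (24.9%) were higher and 3396 (23.5%) lower in Tmem173-/-. Most calls were small: 4927 were under 2-fold, while 1090 genes (7.53%) were higher and 977 (6.75%) lower by a factor of 2 or more. At 8-fold there were 119 lower and 51 higher genes, at 16-fold 65 and 13, and at 32-fold 30 and 4. Counts at high folds varied with the filter and with the libraries used. The filter was rerun when a library was left out. Without wild type cGAMP replicate 1, 2 or 3, it passed 14860, 14840 or 14896 genes. There were then 103, 90 or 77 higher genes at 8-fold, and 34, 24 or 18 at 32-fold. Without Tmem173-/- cGAMP replicate 1 there were 13 higher genes at 32-fold. With all libraries and no filter, 110 genes were higher and 224 lower at 8-fold, and 36 and 92 at 32-fold. Without wild type cGAMP replicate 1, lower and higher genes at 32-fold were equal in number, 34 each. In 8529 of the 14473 genes (58.9%), all 3 libraries of one genotype lay on one side of all 3 of the other, and 6848 of these were called. Genes at least 2-fold lower took 6.32% to 6.68% of the counts of wild type cGAMP libraries and 2.00% to 2.25% of those of Tmem173-/-. Genes at least 2-fold higher took 2.66% to 2.84% and 6.31% to 7.17%. CPM are shares of a library and do not measure RNA per cell. Among the 11621 protein-coding genes tested, 26.5% were lower and 27.5% higher. Gene lists below with shares near these do not stand out from protein-coding genes in general.

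**Figure D1:**
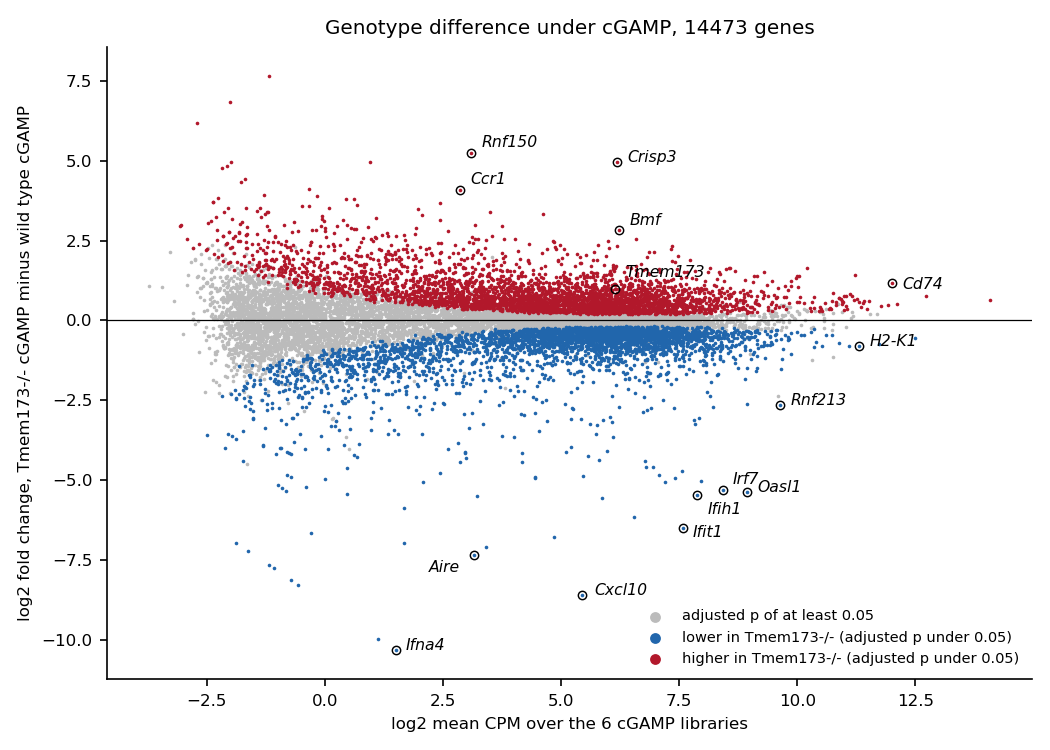
Each point is a gene, placed by the log2 of its mean CPM over the 6 cGAMP libraries (horizontal) and its log2 fold change, Tmem173-/- minus wild type (vertical), with the 3396 called lower in blue and the 3598 called higher in red. Ifna4 and Cxcl10 are marked in the tail below zero, and Rnf150 and Crisp3 in the tail above it.

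Interferons and antiviral genes were among the most strongly lower genes. The 15 lower genes with the largest fitted difference, of those with at least 5 CPM in wild type cGAMP and no overlap between the genotypes, were the interferons Ifna4 and Ifna1, the chemokine Cxcl10, the nucleic acid sensors and PYHIN genes Ifih1, Ifi204 and Ifi207, the antiviral effectors Ifit1, Rsad2, Ifitm3 and Oasl1, the interferon regulatory factor Irf7, and 4 genes with no antiviral name, Aire, Acod1, Tex15 and Pak6. No overlap was thus a condition of choice, also for the 15 higher genes named below, and is no further result where it is stated for them. Promoters from RefSeq (GRCm38.p6, 250 bases before to 50 after a start) were found for 13 of the 15 lower genes, and 8 of these held the ISRE core GAAANNGAAA on one or the other strand. The 6 below are those with a core before the start. They are printed 5′ to 3′ on the strand of the gene, with capitals marking the ISRE core (its reverse complement, beginning with TTTC, where it lies on the other strand) and, in Cxcl10, also the kB consensus of NF-kB. None of the ISRE and kB matches shown overlap each other. The last capital run of Cxcl10 holds overlapping kB matches.
Cxcl10 (chr5:92348963-92349122, minus strand): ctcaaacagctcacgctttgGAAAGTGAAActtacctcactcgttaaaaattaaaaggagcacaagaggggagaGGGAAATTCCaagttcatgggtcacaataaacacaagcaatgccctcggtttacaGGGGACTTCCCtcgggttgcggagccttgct
Ifit1 (chr19:34640765-34640833, plus strand): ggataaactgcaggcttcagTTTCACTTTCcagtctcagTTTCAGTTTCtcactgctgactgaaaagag
Rsad2 (chr12:26456543-26456592, minus strand): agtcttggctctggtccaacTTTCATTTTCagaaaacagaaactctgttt
Ifna4 (chr4:88841588-88841727, plus strand): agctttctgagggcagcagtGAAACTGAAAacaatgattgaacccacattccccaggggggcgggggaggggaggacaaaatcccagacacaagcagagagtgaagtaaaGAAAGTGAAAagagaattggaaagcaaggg
Ifna1 (chr4:88849902-88849951, plus strand): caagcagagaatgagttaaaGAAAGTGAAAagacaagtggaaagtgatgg
Ifi207 (chr1:173741821-173741870, minus strand): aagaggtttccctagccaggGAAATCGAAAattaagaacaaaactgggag

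In Cxcl10 the core began 213 bases before the RefSeq start, in Ifna4 the first began 208 bases before it, in Ifna1 165, in Rsad2 120, in the first of the Ifit1 pair 104 and in Ifi207 41. A match describes these letters and is not a shown binding site. Among all 9800 tested genes with a promoter in the table, 3.95% held the core in at least 1 promoter and 12.05% a kB match. Among genes at least 2-fold lower in Tmem173-/-, 73 of 632 (11.6%) held the ISRE core. The share was 21.2% (40 of 189) at 4-fold and 30.1% (25 of 83) at 8-fold. Genes called lower by less than 2-fold held it in 3.97% and genes not called in 3.55%, both close to the share of all genes. On the higher side it was 2.86% (22 of 770) at 2-fold and 0 of 38 at 8-fold. The kB consensus was in 25.3% of the genes at least 8-fold lower and in 11.6% of those at least 2-fold lower. None of the 11 of the 15 higher genes named below that had a promoter in the table held the ISRE core.

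**Figure D2:**
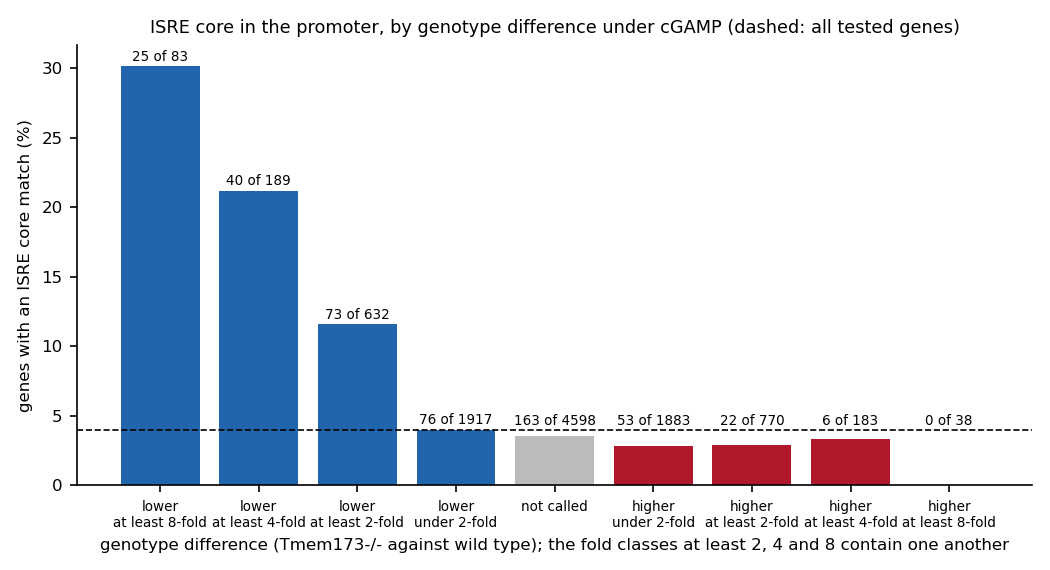
Bars give the percentage of genes with an ISRE core match in a 300-base promoter window, by class of genotype difference under cGAMP, with the number of genes above each bar, and the dashed line is the 3.95% of all tested genes. The share was highest, 30.1%, in genes at least 8-fold lower in Tmem173-/- and stayed below the line in the higher classes.

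Type I interferon RNA was far lower in Tmem173-/-. Ifna4 (ENSMUSG00000070904, chromosome 4, 88841861 to 88842421), an interferon alpha, was at 4.44, 6.78 and 5.66 CPM in wild type cGAMP and had no count in the 3 Tmem173-/- cGAMP libraries. With 478 counts against 0, and a floor of 3 counts over the group, it was at least 163-fold lower (adjusted p = 3.05e-07, edgeR). Ifna1 had 3.89, 8.44 and 6.66 CPM in wild type cGAMP against 0, 0.133 and 0 CPM in Tmem173-/-. Ifna5 had 115 counts against 0 and was at least 39.1-fold lower (adjusted p = 6.82e-05). Interferon beta, Ifnb1, was too low to be tested, with 8, 7 and 9 counts in wild type cGAMP and 0 in each Tmem173-/- cGAMP library. Interferon alpha genes are near-identical copies of each other, so reads may be split between them. Of the 26 interferons and receptors, 9 were tested: 3 were lower, 4 higher and 2 not called, with a median of 0.13 against 0.01 for all genes. That median turned to -0.10 without wild type cGAMP replicate 1 and to -0.17 without Tmem173-/- cGAMP replicate 1. It was 0.08 without wild type cGAMP replicate 2 and 0.02 without Tmem173-/- cGAMP replicate 3. These medians are not all over the same members, since the filter was rerun. Without wild type replicate 1, Tmem173-/- replicate 1 or Tmem173-/- replicate 3, 10 members were tested and 4 were lower. With no filter, 16 were tested, the median was -2.92 and 5 members were called lower. All 3 lower ones were interferon alpha genes and all 4 higher ones were receptor chains, Ifnlr1 by 2.11 ± 0.20, Ifnar1 by 0.70, Ifngr2 by 0.57 and Ifngr1 by 0.51 on the log2 scale.

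Cxcl10 (ENSMUSG00000034855, chromosome 5, 92346638 to 92348889) encodes a chemokine that draws T cells through CXCR3. Its RNA stood at 86.7, 92.7 and 81.5 CPM in wild type cGAMP and at 0.447, 0.166 and 0.0679 CPM in Tmem173-/- cGAMP. All 3 Tmem173-/- libraries were below 1 CPM, far from the wild type values. Its fitted difference was -8.60 ± 0.57 on the log2 scale, 387-fold lower (adjusted p = 8.2e-07, edgeR). Of 35 cytokines and chemokines, 27 were tested, of which 17 were lower, 2 higher and 8 not called, with a median of -1.33. Il10, the regulatory cytokine of B cells, had 3.89, 2.34 and 2.88 CPM in wild type cGAMP against 0.186, 0.0333 and 0.238 CPM in Tmem173-/-, a difference of -4.29 ± 0.63 (adjusted p = 3.51e-05). Ccl5, which recruits T cells and monocytes, was at 145, 105 and 106 CPM against 9.08, 6.22 and 5.54 CPM (-4.09 ± 0.29, adjusted p = 5.8e-07). Neither gene's groups overlapped. Lif, a cytokine of the interleukin-6 family, differed by -3.81 ± 0.64 (adjusted p = 0.000120), and the TNF family members Tnf and Lta by -2.92 and -3.38. The 2 higher members were Ltb, the partner of lymphotoxin alpha, by 0.94 ± 0.18, and Tgfb1 by 0.70 ± 0.12. The chemokines Cxcl9, Cxcl11 and Ccl7, which were not tested for low counts, had 20, 16 and 16 counts in wild type cGAMP and 3, 0 and 0 in Tmem173-/- cGAMP.

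Antiviral effectors had the lowest median of the 22 gene lists. Of 59 tested members, 52 were lower in Tmem173-/-, 3 higher and 4 not called, with a median of -2.07. Ifit1 (ENSMUSG00000034459, chromosome 19, 34640871 to 34650009), which binds foreign RNA lacking a methylated cap, was at 349, 398 and 380 CPM in wild type cGAMP and at 6.10, 2.83 and 3.50 CPM in Tmem173-/-. That is 91.2-fold lower (-6.51 ± 0.72, adjusted p = 9.84e-05, edgeR), with the groups far apart. Rsad2, or viperin, which makes a chain-terminating nucleotide, was at 184, 198 and 172 CPM against 3.39, 2.23 and 2.14 CPM (-6.16 ± 0.58). Ifitm3, which blocks fusion of virus with the endosome, was at 106, 142 and 92.7 CPM against 2.61, 2.20 and 2.38 CPM. The groups were again separate for both. Oasl1, a relative of the oligoadenylate synthetases that restrains translation of Irf7, was at 946, 964 and 965 CPM against 27.0, 21.6 and 21.1 CPM (-5.36 ± 0.41, adjusted p = 4.84e-06). Oas1g, an oligoadenylate synthetase, differed by -6.66 ± 1.07. The ubiquitin-like modifier Isg15 had 437, 580 and 436 CPM in wild type cGAMP against 19.1, 13.2 and 12.4 CPM in Tmem173-/-. The higher members included the restriction factors Trim5 (1.04 ± 0.14) and Ifitm2 (0.57 ± 0.16). Ifit3 and Ifit3b, and the Ifit1 relatives, may share reads.

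The interferon-inducible GTPases, which attack the vacuoles of intracellular pathogens, were lower in 15 of 16 tested members of 18, with a median of -1.61, and none was higher. Gbp10 differed by -4.17 ± 0.50, Iigp1 by -3.54 ± 0.53 and Tgtp1 by -2.82 ± 0.42. Gbp6 was at 25.6, 27.9 and 21.4 CPM in wild type cGAMP and at 2.49, 1.76 and 1.83 CPM in Tmem173-/- (-3.62 ± 0.23, adjusted p = 7.4e-09, edgeR). The genotypes did not overlap for Gbp6. Gbp3 was not called (0.05 ± 0.11). Tgtp1 and Tgtp2 are near-identical and may share reads.

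Among sensors of foreign nucleic acid, Ifih1, Zbp1, Dhx58 and Tlr3 had the largest differences, all lower in Tmem173-/-. Of 21 tested sensors and adaptors, 9 were lower, 7 higher and 5 not called, with a median of -0.23, or -0.12 without wild type cGAMP replicate 1. All protein-coding genes gave 26.5% lower and 27.5% higher. Ifih1 (ENSMUSG00000026896, chromosome 2, 62595798 to 62646255) encodes MDA5, which detects long double-stranded RNA. Its RNA stood at 451, 460 and 462 CPM in wild type cGAMP and at 10.8, 9.55 and 10.5 CPM in Tmem173-/-, 44.5-fold lower (-5.47 ± 0.21, adjusted p = 5.25e-10, edgeR). The 3 libraries of each genotype lay close together and the genotypes did not overlap. Zbp1, the sensor of Z-form nucleic acid, differed by -3.24 ± 0.25, Dhx58 (LGP2) by -2.81 ± 0.21, and Tlr3, the endosomal receptor for double-stranded RNA, by -2.32 ± 0.36. Tlr7, the receptor for single-stranded RNA, was lower, at -1.64 ± 0.14, whereas Tlr9, the receptor for unmethylated CpG DNA, was not called (-0.07 ± 0.11). The higher members included receptors of bacterial products, Nod1 (1.74 ± 0.14), Tlr6 (1.41 ± 0.18) and Tlr2 (1.19 ± 0.16).

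Ifi204 and Ifi207 belong to the PYHIN family, of which Ifi204 is known as a DNA sensor upstream of STING. Ifi204 was at 26.7, 17.8 and 19.2 CPM in wild type cGAMP and at 0.261, 0.133 and 0.0679 CPM in Tmem173-/- (-7.09 ± 0.46, adjusted p = 1.4e-08, edgeR). Ifi207 was at 71.0, 44.2 and 57.0 CPM against 0.782, 0.266 and 0.510 CPM (-6.80 ± 0.51). Both genes stayed below 1 CPM in all 3 Tmem173-/- libraries, and since family members resemble each other their reads may be shared. Over 27 tested genes of the STING pathway and of cyclic dinucleotide handling, 9 were lower, 10 higher and 8 not called, with a median of -0.01. As background, 26.5% of protein-coding genes were lower and 27.5% higher. The cGAS gene Mb21d1 was lower, at -1.87 ± 0.23, and the kinase gene Tbk1 and its substrate Irf3 at -0.51 and -0.37. Slc19a1, a folate carrier that also imports cyclic dinucleotides, was lower, at -1.13 ± 0.13. Enpp1, the ectoenzyme that hydrolyses 2'3'-cGAMP, was higher by 1.40 ± 0.12, as were the negative regulators Nlrx1 (1.46 ± 0.27) and Nlrc3 (1.05 ± 0.29) and the channel subunit Lrrc8c (1.20 ± 0.11).

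Irf7 (ENSMUSG00000025498, chromosome 7, 141262706 to 141266481), the factor that amplifies interferon alpha transcription, was at 629, 760 and 609 CPM in wild type cGAMP and at 17.5, 17.3 and 15.7 CPM in Tmem173-/-. It was 39.6-fold lower (-5.31 ± 0.64, adjusted p = 0.000158, edgeR), with no overlap. Of 20 tested genes of interferon signalling, 12 were lower, 4 higher and 4 not called, with a median of -0.45. Usp18, the ISG15 protease that restrains the interferon receptor, differed by -4.40 ± 0.53, and the cytokine feedback inhibitors Socs2 and Cish by -2.28 and -1.86. Of the ISRE-binding complex, Stat2 and Irf9 had smaller differences, Stat2 of -1.28 ± 0.14 and Irf9 of -0.86 ± 0.10. Irf2, a competitor of IRF1 at ISRE, was higher by 0.94 ± 0.08, and so were Pias1 (0.63) and Jak1 (0.62).

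The 4 remaining lower genes are not known mainly for antiviral work. Aire (ENSMUSG00000000731, chromosome 10, 78030022 to 78043610), the regulator that lets thymic epithelium show tissue antigens, was at 15.1, 22.2 and 15.9 CPM in wild type cGAMP and at 0.0372, 0.0666 and 0.204 CPM in Tmem173-/- (-7.36 ± 0.51, adjusted p = 2.92e-08, edgeR). Acod1, which makes the metabolite itaconate, was at 10.2, 4.24 and 4.49 CPM against 0.0372, 0.0666 and 0.204 CPM (-5.86 ± 0.64). Both genes separated the genotypes, as the rule for naming them required, and wild type replicate 1 was the highest of the 3 for Acod1. Tex15, a germ cell gene, was at 19.2, 16.2 and 18.9 CPM against 0.409, 0.266 and 0.510 CPM (-5.51 ± 0.40). Pak6, a p21-activated kinase, was at 7.21, 9.43 and 7.98 CPM against 0.186, 0.166 and 0.374 CPM (-5.05 ± 0.39). No Tmem173-/- library reached 1 CPM for any of these genes.

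**Figure D3:**
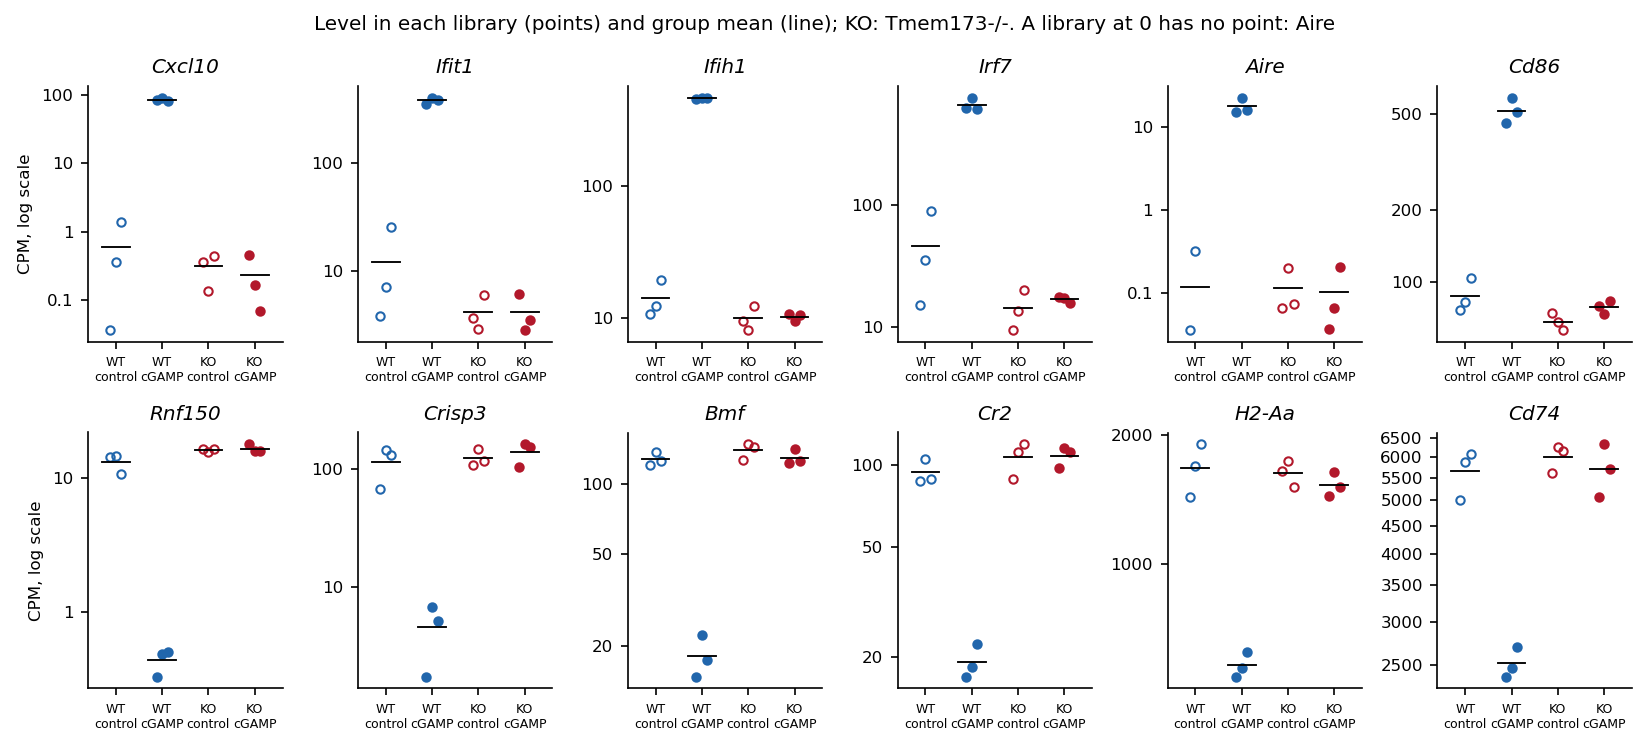
Each panel gives the CPM of one gene (log scale) in the 12 libraries, wild type in blue and Tmem173-/- in red, open points for controls and filled points for cGAMP, with a line at each group mean. In the upper panels wild type cGAMP stands above the other 3 groups, and in the lower panels it stands below them, as for Bmf at 14.7, 22.3 and 17.5 CPM.

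The higher genes were of mixed kinds. Of those with at least 5 CPM in Tmem173-/- cGAMP and no overlap, the 15 with the largest fitted difference were Rnf150, Crisp3, Ccr1, Sema5a, Nfam1, Adgre1, Hepacam2, Pglyrp1, Nid1, Trim36, Bmf, Klf12, St6galnac3, Spns3 and Mturn, with log2 differences from 2.65 to 5.23. Some genes below that level, such as Ms4a7 and Pgk2, had larger fitted differences but no count in wild type cGAMP. Rnf150 (ENSMUSG00000047747, chromosome 8, 82863356 to 83091268), whose product has a RING domain, was at 0.328, 0.482 and 0.498 CPM in wild type cGAMP and at 17.9, 15.9 and 15.8 CPM in Tmem173-/-, 37.5-fold higher (5.23 ± 0.19, adjusted p = 2.39e-11, edgeR). Crisp3, a cysteine-rich secretory protein, was at 1.71, 6.68 and 5.13 CPM against 103, 163 and 153 CPM (4.95 ± 0.49, adjusted p = 3.62e-05). In both genes the lowest Tmem173-/- library was far above the highest wild type library. Ccr1, a receptor for CCL3 and CCL5, was at 0.801, 0.689 and 0.926 CPM against 12.8, 14.3 and 14.0 CPM (4.08 ± 0.19). Bmf (ENSMUSG00000040093, chromosome 2, 118528757 to 118549687), a pro-apoptotic BH3-only protein, was at 14.7, 22.3 and 17.5 CPM against 124, 142 and 126 CPM (2.84 ± 0.13, adjusted p = 1.64e-10). Neither gene's groups overlapped. Nfam1, an ITAM-bearing receptor that activates NFAT, was higher by 3.40 ± 0.21, the guidance cue gene Sema5a by 3.68 ± 0.27, the peptidoglycan-binding Pglyrp1 by 2.98 ± 0.22 and the basement membrane gene Nid1 by 2.95 ± 0.16.

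Adgre1 encodes F4/80, a marker of macrophages, and was at 4.26, 5.27 and 3.70 CPM in wild type cGAMP and 38.9, 53.9 and 41.5 CPM in Tmem173-/- (3.34 ± 0.19, adjusted p = 5.6e-09, edgeR). Of the 12 monocyte and macrophage genes listed, 6 were tested, of which Adgre1 and Ms4a7 were higher and the other 4, Lyz2, Cd14, Cd68 and Csf1r, were not called. Summed without Adgre1, the other 11 genes were at 7.16 to 15.4 CPM in wild type cGAMP and at 6.77 to 8.25 CPM in Tmem173-/- cGAMP. The macrophage genes C1qa, C1qb, C1qc, Fcgr1 and Marco had 0 to 6 counts in every cGAMP library. Dendritic cell genes summed to 847 to 886 CPM in wild type cGAMP and to 571 to 614 CPM in Tmem173-/-. Of 7 tested, Zbtb46, Flt3 and Bst2 were lower, Tcf4 and Cst3 higher, and 2 not called. Tcf4 and Cst3, which B cells also express, were higher by 0.42 ± 0.09 and 0.42 ± 0.10. Without these and Bst2, which is also an antiviral effector, the sum was 36.6 to 44.9 CPM against 19.6 to 24.4 CPM. Most of it was Zbtb46, lower at -1.64 ± 0.16 (adjusted p = 4.88e-07, edgeR), and Flt3. The 2 not called did not follow. Xcr1 had 10, 6 and 5 counts in wild type cGAMP and 14, 11 and 24 in Tmem173-/- cGAMP. Itgax had 39, 12 and 31 against 67, 42 and 33. Clec9a, Siglech and Cd209a had 0 to 5 counts in every cGAMP library. Whether dendritic cells had a part in the differences was not tested.

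Presentation genes split by class. The MHC class I list was lower in Tmem173-/- in 19 of 24 members, with none higher and a median of -0.79, while the MHC class II list was higher in 16 of 20, with none lower and a median of 1.09. Nlrc5, the transactivator of class I genes, was at 327, 306 and 292 CPM in wild type cGAMP and at 111, 103 and 107 CPM in Tmem173-/- (-1.53 ± 0.11, adjusted p = 2.83e-08, edgeR). The classical heavy chain gene H2-K1 was at 3415, 3117 and 3164 CPM against 2164, 1844 and 1508 CPM (-0.81 ± 0.14). For both, every wild type library was above every Tmem173-/- library. The nonclassical genes H2-T24, H2-Q4 and H2-Q6 differed by -1.83, -1.63 and -1.48, although reads may be shared within the H2-Q and H2-T families. The immunoproteasome subunits Psmb8 and Psmb10 were not called (0.05 ± 0.12 and -0.18 ± 0.11).

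Class II genes ran the other way. H2-Aa, an alpha chain, was at 547, 573 and 623 CPM in wild type cGAMP and at 1442, 1637 and 1511 CPM in Tmem173-/- (1.40 ± 0.12, adjusted p = 9.46e-08, edgeR). Cd74, the invariant chain, was at 2384, 2478 and 2704 CPM against 5077, 6336 and 5712 CPM (1.18 ± 0.12, adjusted p = 1.09e-06). Both had all Tmem173-/- libraries above all wild type libraries. March1, a ubiquitin ligase that takes class II and CD86 off the surface, was higher by 2.36 ± 0.24, and the peptide-exchange genes H2-Oa and H2-DMa and the chain gene H2-Eb2 by 1.76, 1.62 and 1.60. Ciita, the class II transactivator, was higher by 0.88 ± 0.15. The DNA-binding partners Rfx5 and Rfxap were not called (-0.04 and 0.08).

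Costimulation and activation genes were mixed: of 27 tested, 9 were lower, 12 higher and 6 not called, with a median of 0.09. The shares over protein-coding genes were 26.5% lower and 27.5% higher. Cd86, the main costimulatory ligand for CD28, was at 456, 582 and 506 CPM in wild type cGAMP and at 79.8, 73.9 and 84.0 CPM in Tmem173-/- (-2.70 ± 0.12, adjusted p = 1.64e-10, edgeR). The wild type libraries were all far above the Tmem173-/- libraries. Its relative Cd80 was lower, at -2.53 ± 0.26, Cd70 at -3.55 ± 0.72, Cd40 at -0.78 ± 0.11 and the early activation marker Cd69 at -1.11 ± 0.15. The immediate-early genes Egr2, Egr3 and Egr1, which antigen receptor signals induce, were higher by 1.67, 0.91 and 0.86, and the SLAM receptor Cd84 by 1.32. Of 23 tested checkpoint and regulatory B cell genes, 9 were lower and 9 higher, with a median of 0.34. The median was -0.05 without wild type cGAMP replicate 3, 0.10 without Tmem173-/- cGAMP replicate 1 and 0.14 without Tmem173-/- cGAMP replicate 3. In those fits 24 members passed the filter, so the medians are over different members. Lag3, an inhibitory receptor for class II, was at 110, 69.5 and 83.5 CPM against 11.3, 8.85 and 7.85 CPM (-3.24 ± 0.18), Tigit differed by -3.43 ± 0.56 and Cd274 (PD-L1) by -0.96 ± 0.11. Surface markers used for regulatory B cells, Cd24a, Cd9, Cd5 and Cd1d1, were higher by 1.65, 1.46, 1.25 and 1.05.

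Genes of B cell identity and antigen receptor signalling were mostly higher in Tmem173-/-. Of 37 tested, 29 were higher, 2 lower and 6 not called, with a median of 0.69. Cr2 (CD21), the complement receptor, was at 16.9, 18.3 and 22.2 CPM in wild type cGAMP and at 96.9, 115 and 111 CPM in Tmem173-/- (2.49 ± 0.13, adjusted p = 8.28e-10, edgeR). Syk, the kinase next to the antigen receptor, was at 172, 190 and 181 CPM against 491, 624 and 583 CPM (1.65 ± 0.12). The genotypes did not overlap for either gene. Fcer2a (CD23) was higher by 2.15 ± 0.24, Vpreb3 by 2.11 ± 0.21, the antigen receptor chain gene Cd79b by 1.31 ± 0.13 and the transcription factor Foxo1 by 1.53 ± 0.09. The lower members included the inhibitory receptor Lilrb4a (-1.32 ± 0.33). Pax5, the factor that keeps B cell identity, was not called (-0.13 ± 0.12).

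Receptors that place B cells in tissue were also mostly higher, 17 of 23 tested, against 3 lower and 3 not called, with a median of 0.84. After Ccr1, the largest difference was in the gut-homing integrin chain gene Itgb7 (2.30 ± 0.16). Ccr6, the receptor for CCL20, was at 182, 158 and 197 CPM in wild type cGAMP and at 497, 542 and 585 CPM in Tmem173-/- (1.60 ± 0.10, adjusted p = 4.94e-09, edgeR), with no overlap. The sphingosine phosphate receptors S1pr4 and S1pr1, which guide egress, were higher by 1.42 and 1.26. Ccr7, the receptor that draws cells to the T zone, was lower, at -0.53 ± 0.10 and the integrin chain gene Itgb1 at -0.57 ± 0.13. Ccr9 was lower, at -1.17 ± 0.37 (adjusted p = 0.0157) and kept its call in 2 of the 6 fits that left out a cGAMP library, with adjusted p from 0.00260 to 0.0791.

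Of 27 NF-kB pathway genes and targets, 15 were lower, 3 higher and 9 not called, with a median of -0.26. The largest differences were in targets: Ier3 (-3.30 ± 0.64), Gadd45b (-1.79 ± 0.15), Traf1 (-1.12 ± 0.10) and the adhesion molecule gene Icam1 (-1.09 ± 0.08). Of the transcription factor subunits, Nfkb2 was lower, at -0.33 ± 0.08, and Rela, Rel and Relb were not called (0.17, 0.05 and -0.06). Among the higher members, Tnip1, an inhibitor of the pathway, differed by 0.60 ± 0.08. The others were Ikbkg, whose call was lost without wild type cGAMP replicate 1 (adjusted p = 0.0735), and Birc3, which was not called in any of the 6 fits that left out a cGAMP library (adjusted p from 0.0570 to 0.125).

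Death regulators split without a common direction: of 36 tested apoptosis genes and p53 targets, 14 were lower, 13 higher and 9 not called, with a median of -0.01. Protein-coding genes as a whole were lower in 26.5% and higher in 27.5%. Pmaip1 (Noxa), a BH3-only killer protein, was at 188 ± 15.4 CPM (mean ± SD) in wild type cGAMP and at 25.8 ± 2.49 CPM in Tmem173-/- (-2.86 ± 0.09, adjusted p = 1.25e-11, edgeR), the smallest adjusted p of all genes tested. No libraries overlapped. Bbc3 (Puma), another BH3-only gene, was lower, at -2.35 ± 0.11, and Mlkl, the executioner of necroptosis, at -3.64 ± 0.29. The BH3-only gene Bmf ran the other way, as did Gadd45a (2.10 ± 0.18), Sesn1 (1.52 ± 0.12) and the survival gene Bcl2 (1.46 ± 0.11). The survival gene Bcl2l1 was lower, at -0.82 ± 0.09. Trp53 was lower, at -0.64 ± 0.08 and Cdkn1a at -1.62 ± 0.28.

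Growth and division genes were mostly lower in Tmem173-/-, with mitotic genes mixed between called and not called. Of 46 cell cycle and DNA replication genes, 30 were lower, 3 higher and 13 not called, with a median of -0.78. Ccnd2, the D-type cyclin of activated B cells, was at 924, 799 and 795 CPM in wild type cGAMP and at 145, 135 and 129 CPM in Tmem173-/- (-2.62 ± 0.15, adjusted p = 3.26e-09, edgeR), with no overlap. The replication licensing gene Cdc6 was lower, at -2.63 ± 0.39, E2f1 at -1.87 ± 0.19 and Rrm2, a subunit of ribonucleotide reductase, at -1.79 ± 0.31. The proliferation marker Mki67 was not called (-1.18 ± 0.53). Nor were the mitotic genes Aurka, Aurkb, Bub1b, Ccnb2 and Cdc20 (adjusted p from 0.153 to 0.361, edgeR), whereas Bub1 and Cdk1 were called. The calls of Ccnb1 and Cenpe held in 2 and 1 of the 6 fits that left out a cGAMP library. Higher were the cyclin-dependent kinase inhibitors Cdkn1b (0.96) and Cdkn2c (1.02) and the centromere histone gene Cenpa (1.03). All 36 ribosome biogenesis genes were tested: 32 were lower, none higher and 4 not called, with a median of -0.83. Gnl3 (nucleostemin) was at 324, 344 and 319 CPM against 121, 91.3 and 120 CPM (-1.57 ± 0.11), and Nop56, Nolc1 and Nop58, of small nucleolar ribonucleoproteins or their assembly, differed by -1.35, -1.20 and -1.11. Myc, a driver of this programme, was at 393, 323 and 360 CPM against 162, 142 and 155 CPM (-1.23 ± 0.11).

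Stress, differentiation and metabolic lists were divided. Of 29 genes of the unfolded protein and integrated stress responses, 10 were lower, 6 higher and 13 not called, with a median of -0.09. Among all protein-coding genes, 26.5% were lower and 27.5% higher. Atf3, a stress-induced factor, was at 43.6, 39.8 and 43.4 CPM in wild type cGAMP and at 1.49, 1.17 and 1.56 CPM in Tmem173-/- (-4.91 ± 0.18, adjusted p = 2.83e-11, edgeR). The chaperone gene Hspa5 was lower, at -0.58 ± 0.11, Ppp1r15a at -1.30 ± 0.09, and Ddit4 was higher by 1.13 ± 0.10. Of 18 tested plasma cell and germinal centre genes, 10 were higher, 1 lower and 7 not called, with a median of 0.36. Creb3l2 was higher by 1.95 ± 0.14, Sdc1 (CD138) by 1.79 ± 0.12, the germinal centre factor Bcl6 by 1.35 ± 0.10 and its opponent Prdm1 by 1.01 ± 0.19. That count of 10 was 6 without wild type cGAMP replicate 2 or 3, or without Tmem173-/- cGAMP replicate 1 or 2. The lower member was Slamf7 (-0.44 ± 0.08).

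Glycolysis and glucose uptake genes gave 9 lower, 8 higher and 8 not called of 25 tested, with a median of -0.11. Hk2, the inducible hexokinase, was lower, at -1.37 ± 0.17, and Aldoc, Pdk2 and the glucose transporter gene Slc2a3 were higher by 2.55, 1.79 and 1.22. Cholesterol genes gave 5 lower, 9 higher and 11 not called of 25 tested, with a median of -0.04. For both lists the background over protein-coding genes was 26.5% lower and 27.5% higher. The count of 5 lower cholesterol genes was 3 without Tmem173-/- cGAMP replicate 1. The efflux transporters Abcg1 and Abca1 had the largest differences, higher by 2.43 ± 0.23 and 2.33 ± 0.14, while Hmgcs1 and Sqle were not called. Of 13 transcripts of the mitochondrial genome, 11 were higher and 2 not called, with a median of 0.76, and mitochondrial counts made up 1.19% to 1.32% of wild type and 1.75% to 2.26% of Tmem173-/- cGAMP libraries. Among them mt-Co1 was higher by 0.76 ± 0.12 (adjusted p = 7.17e-05, edgeR).

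**Figure D4:**
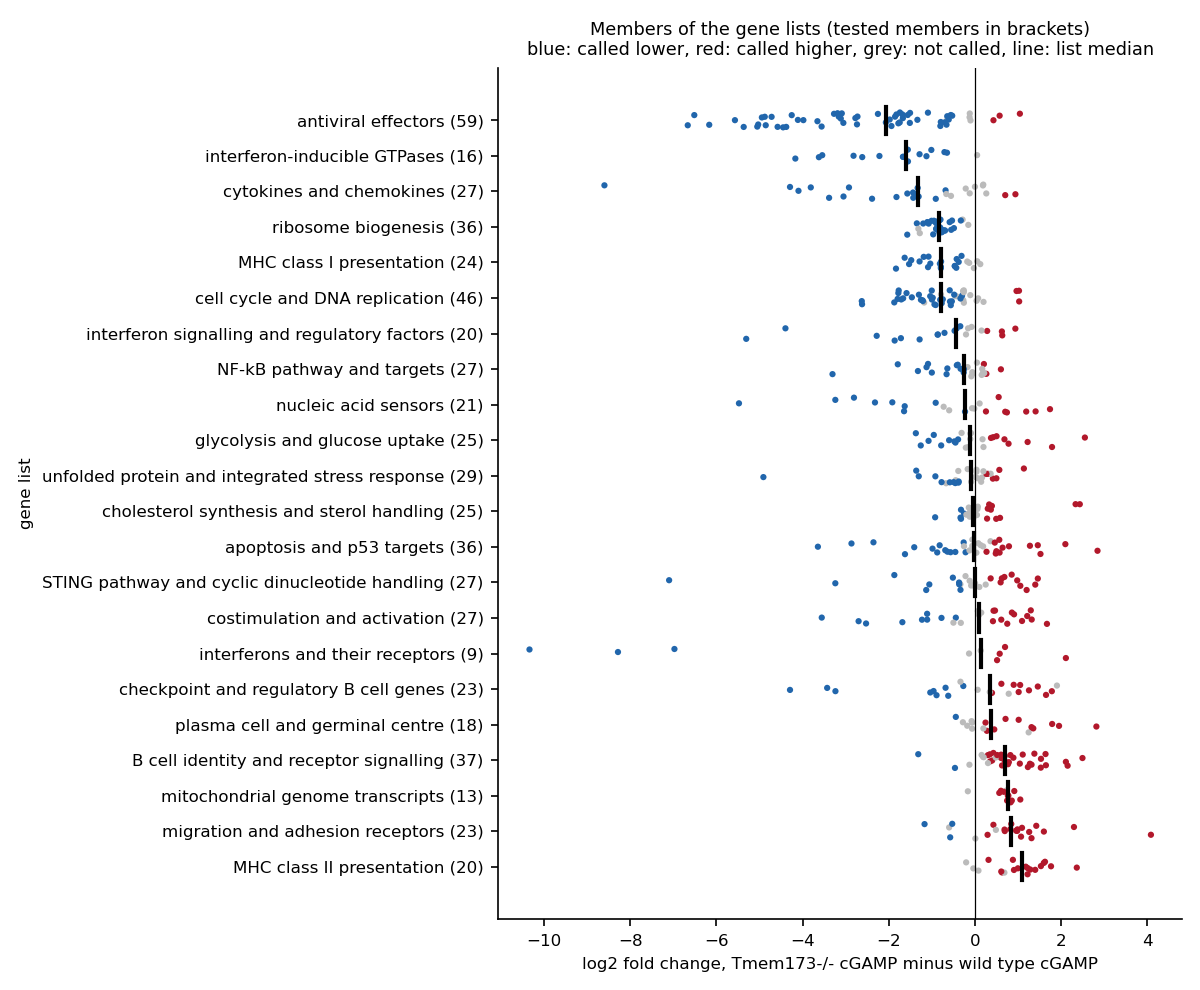
Points are the tested members of the 22 gene lists, placed by log2 fold change under cGAMP (Tmem173-/- minus wild type), blue for called lower, red for called higher and grey for not called, with a line at each list's median. Medians run from -2.07 for antiviral effectors to 1.09 for MHC class II presentation.

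Without agonist, no gene passed the test between the genotypes. None (0%) of the 14473 genes was called between Tmem173-/- and wild type controls by edgeR, 921 had an unadjusted p under 0.05, and the smallest adjusted p was 0.728. DESeq2 called 4 genes on the same counts, all higher, and limma-voom and limma-trend called 0. The median size of the log2 difference was 0.13 without agonist and 0.43 under cGAMP. Antiviral effectors nevertheless had a median of -0.49 between the controls, where wild type control replicate 3 had the highest level of the 6 controls in 44 of the 59. For Ifit1, wild type controls had 3.81, 7.07 and 25.3 CPM and Tmem173-/- controls 3.69, 2.89 and 6.02 CPM. That difference, -1.53 on the log2 scale, was not called (adjusted p = 0.728), and the highest wild type value was that of replicate 3.

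The genotype difference under cGAMP was then tested against that without agonist, as an interaction. The difference of the differences was called in 4569 genes (31.6%), 2532 of them higher (17.5%) and 2037 lower (14.1%) under cGAMP. This split turned to 2036 higher and 2494 lower on log2(FPKM + 1) with limma-trend, and to 2109 and 2401 with library totals in place of TMM. Of the 2067 genes called at least 2-fold apart under cGAMP, 1534 were also called in the interaction with the same sign. The difference under cGAMP is itself part of the interaction. Genes chosen by it, also those named below, therefore favour a shared sign, which is no separate support. By list, the interaction was called higher in 16 of 20 tested class II genes. It was called lower in 42 of 59 antiviral effectors, 27 of 36 ribosome biogenesis genes and 13 of 16 GTPases. Other lists had fewer: 11 of 24 class I genes were called lower in it, against 19 under cGAMP. Of the 9 tested interferons and receptors, 0 were called lower in it, against 3 under cGAMP. Cxcl10 had an interaction of -7.67 (adjusted p = 0.00196), Ifih1 of -4.96 (adjusted p = 6.04e-08), Rnf150 of 4.94 (adjusted p = 2.27e-09) and Bmf of 2.71 (adjusted p = 3.66e-08). For Ifna4, Ifna1 and Ifi204 the interaction was not called (adjusted p = 1.000, 0.896 and 0.117). Ifna4 and Ifna1 had almost no counts in the controls of either genotype, so there the interaction has little to compare. If same-numbered control and cGAMP libraries share a mouse, these p-values do not take account of it.

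**Figure D5:**
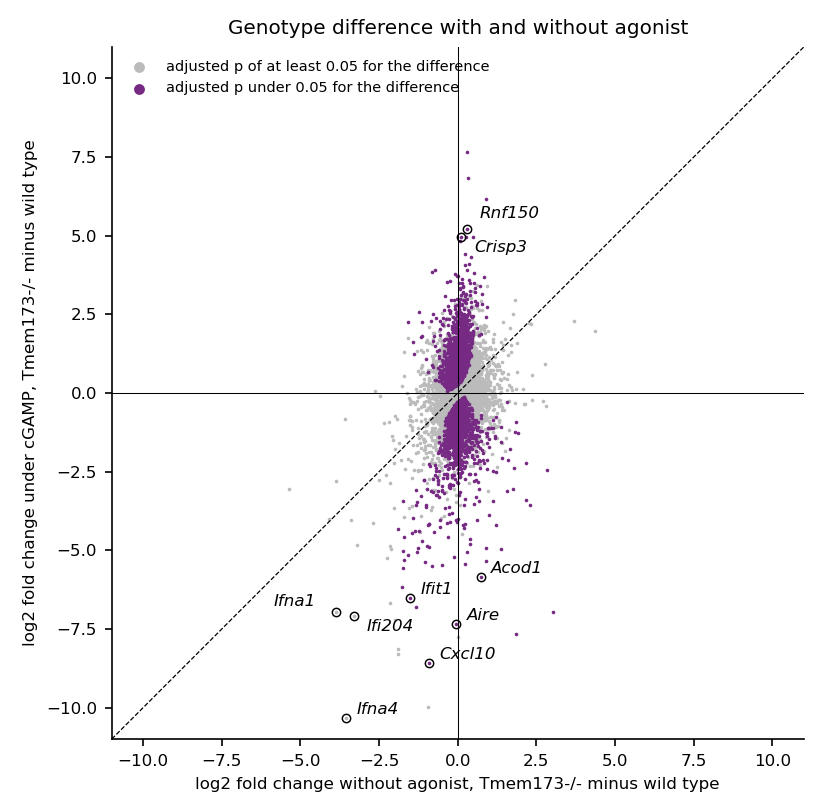
Each gene is placed by its log2 fold change, Tmem173-/- minus wild type, without agonist (horizontal) and under cGAMP (vertical), in purple where the adjusted p of the difference between them is under 0.05 (4569 genes), with the line of equal differences dashed. The cloud is taller than it is wide, with median sizes of 0.43 under cGAMP and 0.13 without agonist.

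Without wild type cGAMP replicate 1, the library with most T cell, NK cell and neutrophil marker RNA, 3217 genes were higher and 2963 lower in Tmem173-/- under cGAMP. There, 911 were lower at 2-fold and 121 at 8-fold, and the ISRE core was in 12.4% and 30.4% of those with a promoter in the table. Without wild type replicate 1 of both conditions, the counts were 3181 and 2910. In that fit 52 antiviral effectors were lower and 2 higher, 18 class I genes were lower, 15 class II genes were higher, 29 B cell identity genes were higher and 32 ribosome biogenesis genes were lower. All 31 genes named by rule, the 15 lower, the 15 higher and Tmem173, kept their direction and an adjusted p under 0.05 in that fit and in each of the other alternatives run on this comparison. The 15 lower and 15 higher genes had been chosen from these same libraries for large called differences. For them this is a weak check.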

How the data were processed

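The submitters' processing notes name fastp, STAR and featureCounts as tools and GRCm38 and mm10 as builds. Versions, annotation and strandedness are not given in the sources used here. The authors deposited raw counts per gene and library, with a gene length in bases, and FPKM values as a second unit. Counts were analysed as deposited in R 4.3.3 with edgeR 4.0.16: filterByExpr by group, TMM scaling, a mean for each of 4 groups over 12 libraries, robust quasi-likelihood fits and two-sided F tests, with Benjamini-Hochberg adjustment over all 14473 genes within each comparison and a threshold of 0.05. Each SE is the absolute log2 fold change divided by the root of F. CPM use TMM-scaled totals. The code was tested on simulated data. No other columns with values per sample were present (0).

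Alternatives were other scalings and filters, DESeq2 1.42.0, limma-voom and limma-trend (limma 3.58.1) on log2(FPKM + 1) of the deposited FPKM, a replicate block, the 6 libraries alone, and each library left out. Named genes were Tmem173 and the 15 lower and 15 higher genes with the largest fitted difference among called genes with at least 5 CPM in the higher group, no overlap and a symbol that is not a clone, model or antigen receptor segment name. From the lists came the called members with the largest differences, members against their list's majority, and further members named for their role after their values were seen. The comparison, the 22 gene lists, the 9 marker lists and the named-gene rule were chosen with earlier results of these data known. Lists are described by counts and medians, without a test. A fold against a group at 0 uses a floor of 3 counts over the group, which covers counting error only. Same-numbered libraries of the 2 genotypes were not treated as pairs, since the labels name no shared source. Promoter sequences are from RefSeq, matched by symbol. A few members of the lists were counted with their list but are not reported here by name.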

Additional observations from a re-analysis of the deposited data

Results flagged for a closer look

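The genotype difference depended on the agonist in 4569 genes, by the edgeR test of the difference under cGAMP minus the difference without agonist (adjusted p under 0.05). Values below are that difference of differences on the log2 scale. Tmem173 itself was among them, at 1.02: its RNA was lower in wild type cGAMP than in the other 3 groups.

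Of the named genes lower in Tmem173-/- under cGAMP, the difference was larger under cGAMP for Cxcl10 (-7.67), Aire (-7.31), Ifi207 (-5.47), Ifit1 (-4.98), Rsad2 (-4.39), Acod1 (-6.60), Ifitm3 (-3.83), Tex15 (-4.70), Ifih1 (-4.96), Oasl1 (-4.33), Irf7 (-3.60) and Pak6 (-5.34). All 12 had an adjusted p under 0.05 for it. These genes, and the higher ones below, were chosen for large differences in the same cGAMP libraries. A larger difference under cGAMP was favoured by that choice and is no separate support.

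Of the named genes higher in Tmem173-/- under cGAMP, it was larger under cGAMP for Rnf150 (4.94), Crisp3 (4.83), Ccr1 (3.84), Sema5a (2.86), Nfam1 (3.24), Adgre1 (2.80), Hepacam2 (2.73), Pglyrp1 (3.02), Nid1 (2.78), Trim36 (2.85), Bmf (2.71), Klf12 (2.22), St6galnac3 (2.49), Spns3 (2.65) and Mturn (2.32). Whether same-numbered libraries come from one mouse is not stated, and the part of any such sharing was not tested.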

How the results depend on the processing

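Under cGAMP, genes higher in Tmem173-/- numbered 3331 to 3920 and genes lower 3325 to 3812 over the other scalings, filters, tools and designs with all 3 libraries per group. The split of 3598 higher and 3396 lower turned to 3369 and 3546 with library totals and to 3331 and 3623 with limma-trend on log2(FPKM + 1). DESeq2 shared 6979 of the 6994 calls, all with the same sign. Leaving out 1 library gave 3031 to 3341 higher and 2823 to 3134 lower. For the interaction the ranges without 1 library were 2009 to 2487 higher and 1568 to 1992 lower. Without agonist, where edgeR called 0 genes, the fit without a filter called 32 higher and 119 lower, DESeq2 4 higher, the fit without both wild type replicate 1 libraries 4 higher and 1 lower, and the fits without 1 library 0 to 1 higher and 0 to 1 lower. The cause was not tested. Of 444 called list members, 392 kept their call under every alternative, no called member changed direction, and of the 7545 values of these members under alternatives 7315 stayed past the threshold.

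The replicate number as a block gave 3694 higher and 3512 lower genes under cGAMP over 12 libraries, 3920 and 3812 within the 6 libraries, 0 and 0 without agonist, and 2670 and 2262 for the interaction. Under cGAMP, deviations of same-numbered libraries correlated across genes at 0.113, 0.0930 and 0.0547, and each library correlated best with its own number. This did not hold between the controls of the 2 genotypes, where same-numbered libraries correlated at 0.0790, 0.140 and -0.160. There, wild type replicate 3 correlated best with Tmem173-/- replicate 1 (0.202), and wild type replicate 2 with Tmem173-/- replicate 3 (0.167). Control and cGAMP libraries of one number correlated at 0.300, 0.218 and 0.0834 in wild type and at 0.288, 0.0958 and 0.170 in Tmem173-/-. In these pairs each cGAMP library correlated best with its own number. The numbers share no stated source and were not used as pairs. Medians of the STING pathway, apoptosis and cholesterol lists took either sign when single libraries were left out, and that of the STING pathway was -0.13 without Tmem173-/- cGAMP replicate 1. The depth limits genes of few counts, such as Ifnb1, which were not tested. Libraries of one genotype share mice to an unknown degree, and the dose and allele were not given.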

Other observations

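Gene sets outside the lists were examined after their values had been seen, and none was tested as a set. Protein-coding genes of the X chromosome were more often higher than lower in Tmem173-/- cGAMP: of 362 tested, 140 (38.7%) were higher and 47 (13.0%) lower, against 27.1% higher and 26.95% lower of 11230 autosomal ones. Without Xist, X-linked genes took 2.71% to 2.73% of CPM in the 3 wild type cGAMP libraries, 3.18% to 3.23% in Tmem173-/- cGAMP and 3.13% to 3.23% in the 6 controls. Xist, the RNA that silences one X chromosome, was in all 12 libraries and lower in Tmem173-/- cGAMP by -0.43 ± 0.16 on the log2 scale (adjusted p = 0.0333, edgeR).

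Parts of the translation and protein turnover machinery differed in direction. Over all tested genes 24.9% were called higher and 23.5% lower. Of 81 cytosolic ribosomal protein genes, 36 were higher in Tmem173-/- and 4 lower, with a median log2 difference of 0.35, against -0.24 without agonist. Their sums in the controls overlapped, at 117660, 124370 and 160680 CPM in wild type and 134020, 114020 and 93642 CPM in Tmem173-/-. Eukaryotic initiation factor genes were lower in 28 and higher in 5 of 53, aminoacyl-tRNA synthetase genes lower in 16 of 18 with none higher, and proteasome subunit genes lower in 31 of 46 with none higher. Their medians were -0.30, -0.51 and -0.44 under cGAMP and -0.11, -0.08 and -0.24 without agonist. Proteasome sums in the controls also overlapped, at 8039, 7308 and 9736 CPM in wild type and 8186, 6823 and 6220 CPM in Tmem173-/-. Of 77 mitochondrial ribosomal protein genes, 37 were lower and 1 higher. The median was -0.30 under cGAMP and -0.22 without agonist, and the interaction was called lower in 7. For proteasome genes it was called lower in 5. Of 78 small nucleolar RNAs, 36 were lower and 1 higher. Libraries were made from poly-A RNA, which most small nucleolar RNAs lack. Immunoglobulin V segments were higher in 58 of 198 (29.3%), near the share of all genes, and lower in none.

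Among genes with no count in one genotype under cGAMP, the hormone gene Sct had 104 counts in wild type and 0 in Tmem173-/- and the activin chain gene Inhbb 80 and 0. The testis-type kinase gene Pgk2 had 0 counts in wild type cGAMP, 77 in Tmem173-/- cGAMP, 84 in wild type controls and 105 in Tmem173-/- controls.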
